A study of Drosophila melanogaster with 46 samples.

Results

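The elements invader2, invader3 and accord2 are LTR retrotransposons of the gypsy superfamily in Drosophila melanogaster, 3 of the 124 transposable elements (TEs) in the deposited small RNA table. They were chosen by the level of their sense small RNAs, those with the sequence of the element's own transcript, which was lower in a CG9754 precipitate than in a Piwi precipitate and in input RNA, while that of many other LTR elements was higher. The sense values of these comparisons are therefore given as a description, without a test, and so are the other values of the same comparisons. The tests below concern Piwi precipitate against input, which the choice did not use, although it shares those libraries.

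The RNA came from ovarian somatic cells (OSC), a cultured line that descends from the somatic follicle cells of the fly ovary and keeps an active Piwi pathway. The 6 libraries used were 2 of input small RNA, whose genotype label reads none, 2 from a Piwi immunoprecipitate (Piwi-IP) and 2 from a CG9754 immunoprecipitate (CG9754-IP). The labels carry the same culture, siRNA transfection and extraction texts for the whole series, name no siRNA for these libraries, and do not say how the proteins were precipitated or whether the paired libraries came from separate cultures. A p-value then measures only the spread between these libraries, which may be technical. The other 40 of the 46 samples, 17 of mRNA, 18 of chromatin immunoprecipitates and 5 of small RNA after a knockdown, hold no values for these elements and were not used here.

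Piwi is the nuclear Argonaute protein of ovarian somatic cells. It carries piRNAs, small RNAs made mostly from long cluster transcripts in which TE fragments lie in reverse, so that most somatic piRNAs are antisense to TE transcripts and can pair with them. CG9754, also called Silencio or Panoramix, acts with Piwi at nascent TE transcripts and leads to transcriptional silencing and repressive chromatin. LTR elements of the gypsy superfamily copy themselves through an RNA intermediate, and several of them, gypsy, ZAM and Idefix among them, are classic targets of the somatic pathway.

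Values are RPM, reads per 1000000 reads of a library, and the library totals, recovered from the smallest step between values, ranged from 12493500 to 26138400 reads. The TEs that mark somatic follicle cells had abundant antisense small RNAs in these libraries: gtwin averaged 30040 RPM in input, gypsy 13062, Idefix 9428 and ZAM 2915, while the germline elements HeT-A and TAHRE averaged 2.43 and 1.37 RPM, Burdock 5.72, the I-element 71.6 and jockey 164.8. The sense strand made up 5.45% and 5.53% of the TE signal in the input libraries, 5.26% and 5.23% in Piwi-IP and 9.47% and 9.42% in CG9754-IP. CG9754-IP replicate 1 stood above replicate 2 over the sense strand, with a median difference of 0.23 (log2) over the 53 TEs that passed the filter (10 RPM or more on average), against −0.01 between the libraries of input and of Piwi-IP. The differences of the 3 elements are therefore also given without either of these libraries. Read numbers are those implied by the steps between values, since the table itself gives RPM.

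In unselected RNA of these cells the 3 elements had mostly sense small RNAs, unlike the somatic target elements. For invader2 the sense strand held 62.9% and 62.2% of the reads of both strands in the input libraries. For invader3 it held 75.4% and 72.5%, and for accord2 95.8% and 96.7%. By comparison the mean was 0.588% for gypsy and 0.00679% for gtwin. By sense level in input, invader3 stood 19th, invader2 23rd and accord2 40th of the 124 TEs, and by antisense level they stood 55th, 49th and 116th. Both strands summed to 140.1 ± 3.85 RPM for invader3 (mean ± SD, n = 2), 131.1 ± 6.72 for invader2 and 16.7 ± 1.24 for accord2.

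Sense small RNAs of invader2 had 79.5 and 84.6 RPM in input, 83.8 and 85.0 in Piwi-IP and 26.0 and 19.1 in CG9754-IP. These values rest on 1499 and 1296 reads in input, 1262 and 1062 in Piwi-IP and 679 and 380 in CG9754-IP. Both CG9754-IP libraries lay below all the others, as they did in 24.5% of the 53 TEs, at 26.7% of the Piwi-IP mean and 27.5% of the input mean. On the log2(RPM + 1) scale the difference from Piwi-IP was −1.87, or −2.09 without CG9754-IP replicate 1 and −1.66 without replicate 2. From input it was −1.83, or −2.04 and −1.62.

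Sense small RNAs of invader3 had 103.5 RPM in each input library, 107.9 and 110.9 in Piwi-IP and 50.3 and 34.9 in CG9754-IP, from 1953 and 1586, 1625 and 1386, and 1316 and 693 reads. Again both CG9754-IP libraries lay below all the others, at 38.9% of the Piwi-IP mean and 41.2% of the input mean. The log2 difference from Piwi-IP was −1.36, or −1.62 without CG9754-IP replicate 1 and −1.10 without replicate 2. From input it was −1.28, or −1.54 and −1.03.

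Sense small RNAs of accord2 had 16.9 and 15.3 RPM in input, 15.3 and 20.3 in Piwi-IP and 10.9 and 5.43 in CG9754-IP, from only 318 and 235, 231 and 254, and 284 and 108 reads. The CG9754-IP libraries lay below the others, at 45.7% of the Piwi-IP mean and 50.6% of the input mean, but the pair itself was far apart. Replicate 1 exceeded replicate 2 by a ratio of 2.00 (exact conditional binomial 95% interval 1.60 to 2.52, counting error only), and the Piwi-IP libraries also differed beyond counting error, at 0.754 (0.628 to 0.905). The log2 difference from Piwi-IP was −1.10, or −1.54 without CG9754-IP replicate 1 and −0.65 without replicate 2. From input it was −0.97, or −1.41 and −0.53. A pseudocount of 10 RPM gave −0.63 from Piwi-IP and −0.54 from input. It had the fewest reads of the 3 elements and the widest range over these fits.

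The sense differences also depend on scaling. With the libraries brought to an equal TE total, the median log2 difference from Piwi-IP over the 53 TEs moved from 0.15 to 0.49, and the differences were −1.53 for invader2, −1.02 for invader3 and −0.78 for accord2. With the values as deposited, they were −2.02, −1.51 and −1.24 relative to the median of the 53 TEs. Some of these TEs passed the filter only because they were high in CG9754-IP. With no filter the median over all 124 TEs was 0.040.

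**Figure D1:**
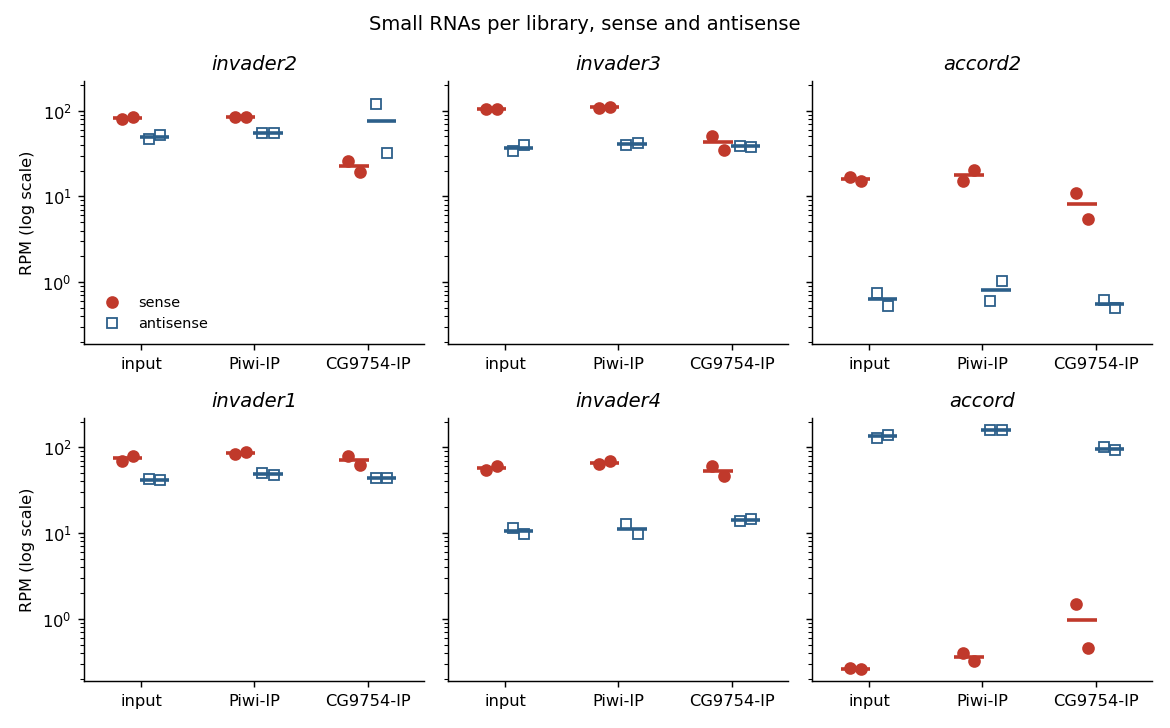
Small RNA level per library in RPM on a log axis, with sense as filled circles, antisense as open squares and a line at the mean of the 2 libraries, for invader2, invader3, accord2 and their namesakes invader1, invader4 and accord. Sense levels of invader2 are 83.8 and 85.0 RPM in Piwi-IP and 26.0 and 19.1 in CG9754-IP, while those of invader1 lie between 62.5 and 88.8 RPM in both precipitates.

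On the antisense strand the same elements gave other values. Antisense small RNAs of invader3 had 33.8 and 39.3 RPM in input, 40.0 and 41.5 in Piwi-IP and 39.1 and 38.2 in CG9754-IP. The CG9754-IP libraries lay between those of input, and just below those of Piwi-IP, where 66.7% of the tested TEs lay below Piwi-IP without overlap. The log2 difference from Piwi-IP was −0.072, against a median of −0.38 over the 75 TEs that passed the filter on that strand, and it turned to 0.27 with the libraries brought to an equal TE total. Without CG9754-IP replicate 1 or replicate 2 it was −0.090 or −0.055. The antisense difference varied with the strand share among the 53 TEs that passed the filter on the sense strand. Its median was 0.16 in those with more than 50% sense reads in input and −0.48 in the others. The 0.16 is the value of invader2 itself, which differed widely between the CG9754-IP libraries, as given below. Some of these TEs, accord2 among them, were below the antisense filter.

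Antisense small RNAs of invader2 had 46.9 and 51.3 RPM in input, 55.6 and 54.7 in Piwi-IP, and 118.1 and 32.0 in CG9754-IP. The CG9754-IP libraries thus lay on either side of all the others, and the direction rests on which of them is used: the log2 difference from Piwi-IP was 0.16 with both, −0.77 without replicate 1 and 1.09 without replicate 2. With 3088 and 636 reads, the ratio of replicate 1 to replicate 2 was 3.69 (3.39 to 4.03), beyond counting error. Of the 75 TEs tested on this strand, invader2 had the largest difference between the CG9754-IP libraries (1.85 on the log2 scale, median of all 0.13), while between the Piwi-IP libraries it stood 55th. On the sense strand the same pair differed by a ratio of 1.36 (1.20 to 1.54). Why the pair differs on the antisense strand of invader2 was not tested.

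For accord2, antisense small RNAs were near the limit of these libraries. They had 0.742 and 0.522 RPM in input, 0.597 and 1.04 in Piwi-IP and 0.612 and 0.503 in CG9754-IP, from 8 to 16 reads each, and the groups overlapped. At this depth no separation of the groups was seen on that strand, and the size of difference that could be seen was not tested.

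The share of the sense strand within a library does not depend on how that library was scaled. In invader2 the sense share was 60.1% and 60.9% in Piwi-IP, and 18.02% (Wilson 95% interval 16.8% to 19.3%) and 37.4% (34.5% to 40.4%) in CG9754-IP, so that the element was mostly sense in Piwi-IP and mostly antisense in CG9754-IP. In invader3 the share was 73.0% and 72.8% in Piwi-IP and 56.3% (54.2% to 58.3%) and 47.7% (45.2% to 50.3%) in CG9754-IP, close to an even split. In accord2 it was 96.3% and 95.1% in Piwi-IP and 94.7% and 91.5% in CG9754-IP, with overlapping intervals (91.5% to 96.7% and 85.1% to 95.3% in CG9754-IP), so accord2 was nearly all sense in both. The log2 ratio of sense to antisense was taken with 1 RPM added to each. Between CG9754-IP and Piwi-IP it differed by −2.03 for invader2, −1.29 for invader3 and −0.88 for accord2. The median over the 89 TEs tested was 0.61. Unlike the share, this ratio moves with scaling and with the RPM added. For accord2 it differed by −0.70 at an equal TE total, −0.74 with 0.1 RPM added and −0.59 with 10 RPM added. Without CG9754-IP replicate 1 or replicate 2 the invader2 ratio differed by −1.32 or −2.75. For invader3 the values were −1.53 or −1.05, and for accord2 −1.27 or −0.49. Over the 89 TEs limma called 52 ratios higher and 18 lower, in the comparison that chose the elements. Some other TEs that were mostly sense in input had a lower ratio too. Their antisense and sense log2 differences were 2.02 and 0.66 in springer and 0.37 and −0.86 in Transpac. In a copia-type element named by a number they were 0.88 and −0.78, and in invader4 0.33 and −0.32. The ratio itself differed by −0.65 in invader4 and −0.16 in invader1. It went the other way, by 1.21, in accord, which was mostly antisense.

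The table holds 5 namesakes of the 3 elements. Sense small RNAs of invader1 had 70.0 and 78.6 RPM in input, 83.8 and 88.8 in Piwi-IP and 78.7 and 62.5 in CG9754-IP, and those of invader4 had 54.3 and 60.2, 64.0 and 69.1, and 60.0 and 46.9 RPM. For both elements the CG9754-IP libraries lay below Piwi-IP and overlapped input, with log2 differences of −0.30 and −0.32 from Piwi-IP, which were −0.46 and −0.49 without CG9754-IP replicate 1 and −0.13 and −0.15 without replicate 2. In input their sense shares were 63.8% ± 1.96 and 84.2% ± 2.51 (SD, n = 2), so invader1 had about the same starting share as invader2, at 62.5% ± 0.47, and a similar level. The third namesake, accord, was the reverse of accord2, with nearly all its small RNAs antisense. These had 129.3 and 139.4 RPM in input, 158.7 and 160.6 in Piwi-IP and 100.2 and 92.3 in CG9754-IP. Its sense small RNAs had 0.265 and 0.261 RPM in input, 0.398 and 0.320 in Piwi-IP and 1.49 and 0.453 in CG9754-IP. The CG9754-IP sense mean was thus higher, at 270.7% of the Piwi-IP mean and 369.7% of the input mean. It rests on only 39 and 9 reads. The other 2, invader5 and invader6, had at most 5.97 RPM on either strand in any library and were below the filter. Sense small RNAs of invader5 had 1.80 and 1.501 RPM in input, 2.46 and 1.60 in Piwi-IP and 0.880 and 1.36 in CG9754-IP, from 20 to 37 reads each, and those of invader6 had 2.17 and 1.70, 3.52 and 3.84, and 1.68 and 2.06 RPM. In CG9754-IP the sense means of invader5 and invader6 were 55.2% and 50.9% of the Piwi-IP means. They were 67.8% and 96.8% of the input means, all from few reads.

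Among the 53 TEs tested on the sense strand, invader2, invader3 and accord2 had the 3 lowest log2 differences in both CG9754-IP against Piwi-IP and CG9754-IP against input. Without CG9754-IP replicate 2, accord2 stood 5th from the lowest against Piwi-IP; without replicate 1 it stood 3rd. The comparisons share the CG9754-IP libraries, and this order is what the elements were chosen for. In 30.2% of the tested TEs both CG9754-IP libraries lay below both of Piwi-IP, and in 24.5% they also lay below both of input, which includes all 3 elements. The next TEs in the order lay below both groups as well. Next after accord2 stood Transpac, a gypsy-superfamily element, at 691.5 and 703.9 RPM in Piwi-IP and 446.3 and 331.4 in CG9754-IP (−0.86). It was followed by a copia-type element named by a number, at 223.9 and 217.6 against 137.4 and 119.9 RPM (−0.78), and by BS, a LINE element, at 119.2 and 142.6 against 81.8 and 77.2 RPM (−0.71).

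**Figure D2:**
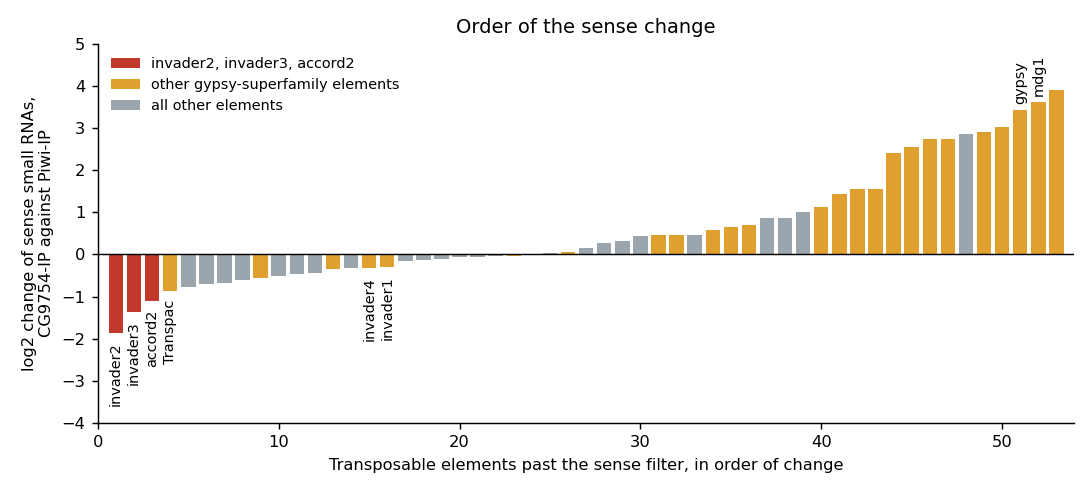
The 53 TEs past the sense filter in order of the log2 difference of their sense small RNAs between CG9754-IP and Piwi-IP, on log2(RPM + 1). The 3 lowest bars are invader2 (−1.87), invader3 (−1.36) and accord2 (−1.10), and gypsy-superfamily elements make up most of the upper end.

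Other gypsy-superfamily elements lay on both sides of 0 on the sense strand. With no filter, limma called 22 of the 46 in the table higher and 7 lower in CG9754-IP than in Piwi-IP at an adjusted p under 0.05, the 3 elements among the 46, against 28.2% higher and 11.3% lower of all 124 TEs. These calls use the comparison that chose the elements and a list drawn up with its results known, so they describe these libraries only. Of the 53 TEs past the filter, some of which passed only because they were high in CG9754-IP, limma called 24 (45.3%) higher and 12 (22.6%) lower, or 29 and 7 at an equal TE total and 24 and 19 without CG9754-IP replicate 1. The largest differences in the list were those of a gypsy-superfamily element named by a number, at 3.72 and 3.44 RPM in Piwi-IP and 79.2 and 57.3 in CG9754-IP (3.90), and of mdg1, at 12.7 and 12.1 against 173.1 and 155.9 RPM (3.63). Both are LTR elements whose small RNAs were nearly all antisense, with means of 34299 and 20307 RPM in input.

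The 3 elements belong to the TEs whose small RNAs were mostly sense in input. Of the 53 TEs, 23 had more than 50% sense reads in input, and 17 of these had a log2 difference below 0 between CG9754-IP and Piwi-IP, with a median of −0.32. Of the 30 TEs at or under 50%, 7 lay below 0, with a median of 0.86. Without CG9754-IP replicate 1 these medians were −0.46 and 0.82, and without replicate 2 they were −0.23 and 0.87. Across the 53 TEs, which share the libraries and are not independent replicates, the input share and the sense difference had a Pearson r of −0.68 and a Spearman rho of −0.79, and −0.67 and −0.81 across the 50 TEs without the 3 elements. With only the 47 TEs that had at least 10 RPM of sense in input, so that none was included for its level in a precipitate, they were −0.63 and −0.73, and the medians were −0.32 in 23 TEs and 0.64 in 24. The 20 mostly sense TEs other than these 3 had a median of −0.23 (−0.36 without CG9754-IP replicate 1 and −0.14 without replicate 2), above the values of invader2, invader3 and accord2, and springer, an LTR element of the gypsy superfamily with 90.7% sense in input, lay at 0.66.

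**Figure D3:**
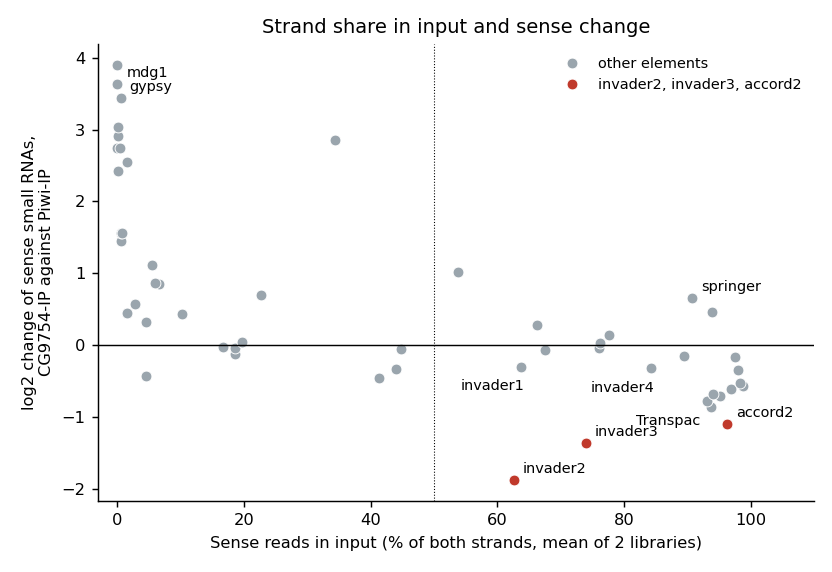
Share of sense reads in input (percent of both strands, mean of 2 libraries) against the log2 difference of sense small RNAs between CG9754-IP and Piwi-IP, 1 point per TE past the sense filter (53 TEs); the dotted line marks 50%. All 3 red points lie right of the line and lowest on the vertical axis, at −1.87, −1.36 and −1.10.

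By their whole sense profile the 3 elements were close to each other and to Transpac, which is not 1 of them. The likeness measure was the Euclidean distance between log2(RPM + 1) profiles over the 6 libraries, each centred on its own mean, within the 53 TEs. The TE closest to invader2 was invader3, at 0.62, then accord2 at 1.05 and Transpac at 1.19, against a median distance of 2.48 to all others. The TE closest to invader3 was accord2 at 0.50, then Transpac at 0.58 and invader2 at 0.62 (median 1.88). For accord2 it was Transpac at 0.49, then invader3 at 0.50 and the DNA transposon hopper at 0.64 (median 1.64). The distances use the values that chose the elements and describe them only.

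Piwi-IP against input asks how far the small RNAs in the Piwi precipitate follow those in the cell. The choice of the elements did not use this comparison. The series holds no control precipitate for small RNA, so small RNAs bound by Piwi cannot be told apart from carried-over RNA. On the sense strand 0 of the 3 elements passed the threshold between Piwi-IP and input by limma, and 0 had an unadjusted p under 0.05. Limma fitted log2(RPM + 1) of all 53 TEs in the 6 libraries. For invader2 the log2 change was 0.041 (95% interval −0.27 to 0.36, adjusted p = 0.916), for invader3 0.079 (−0.24 to 0.40, adjusted p = 0.855) and for accord2 0.13 (−0.38 to 0.63, adjusted p = 0.855). Without the CG9754-IP libraries in the fit, limma gave these elements adjusted p of 0.708, 0.440 and 0.478. In the main fit 3.77% of the 53 TEs were called. The median change over all of them was 0.11, and −0.05 at an equal TE total, where the changes of the 3 elements turned to −0.12, −0.083 and −0.026 (adjusted p = 0.997 for each).

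On the antisense strand 0 of the 2 elements that passed the filter were called by limma, where 1.33% of 75 TEs were called, and 0 had an unadjusted p under 0.05. For invader3 the log2 change was 0.15 (95% interval −0.11 to 0.42, adjusted p = 0.356), and the Piwi-IP libraries lay above both input libraries, as they did for 80.0% of the tested TEs. For invader2 it was 0.16 with a wide interval (−1.26 to 1.59, adjusted p = 0.838), since the fit takes the spread from all 6 libraries, its CG9754-IP pair included. When the CG9754-IP libraries were left out of the fit, which then called 45 TEs, the adjusted p was 0.0936 for invader2 and 0.178 for invader3. The median change over all tested TEs was 0.16, close to the changes of both elements, and 0.00 at an equal TE total.

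The ratio of the strands did not pass for any of the 3 elements between Piwi-IP and input. Its log2 change was −0.12 (95% interval −1.16 to 0.92) for invader2, −0.075 (−0.54 to 0.39) for invader3 and −0.021 (−0.64 to 0.60) for accord2, each with an adjusted p of 0.989 by limma. Of the 89 TEs tested limma called 0 in this comparison (12 at an unadjusted p under 0.05), and the median change was −0.05. The spread behind these intervals again includes the CG9754-IP pairs. Without those libraries in the fit, limma gave adjusted p of 0.504 for invader2, 0.792 for invader3 and 0.915 for accord2.

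**Figure D4:**
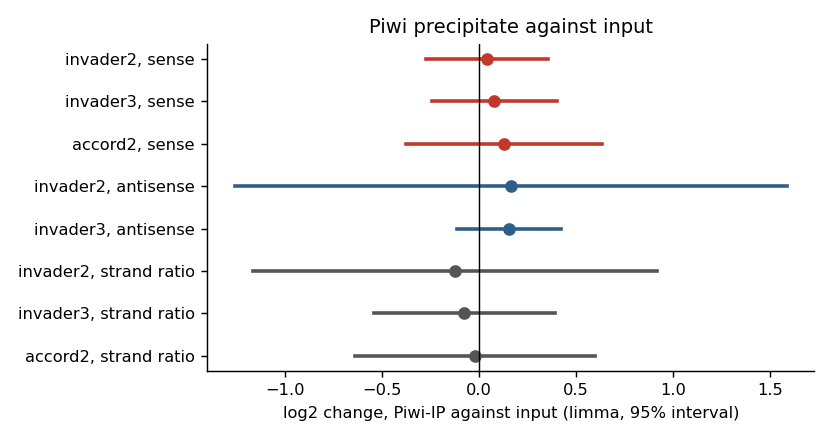
Log2 change from input to Piwi-IP with its 95% interval from limma, for sense, antisense and the sense to antisense ratio of each element past the filter (accord2 was below the antisense filter). Every interval spans 0, and the widest, −1.26 to 1.59, is that of invader2 antisense.

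In the gene name table of the fly, which lists natural TE insertions by family name, invader2 has 23 entries, invader3 33 and accord2 7, against a median of 18 over the 101 TEs of the table with at least 1 entry. The namesakes invader1, invader4 and accord have 47, 32 and 3.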

How the data were processed

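The deposited table gives, for each TE and strand, 1 value per library; its header names sense and antisense reads and no unit. The values were read as RPM because in each deposited column all were whole multiples of 1 step (100% of 1488 values within 0.02 reads). The submitters' processing notes list build dm3 and, without roles, bedtools 2.16.1, SAMtools 0.1.16, Bowtie 0.12.7 and cutadapt 1.0. How reads that match several TEs were treated is not given in the sources used here; related elements may therefore share reads. A floor of 3 reads corresponds to 0.115 to 0.240 RPM.

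Log2(RPM + 1) was fitted with limma 3.58.1 in R 4.3.3 (lmFit, eBayes with trend) over the 6 libraries by group, for TEs that averaged 10 RPM or more, separately for sense, antisense and their ratio. P-values are two-sided, with Benjamini-Hochberg adjustment over all TEs tested and a threshold of 0.05. An exact permutation test of 2 libraries against 2 cannot go below 0.333 and was not used. The limma fit was tested on simulated sense data with equal noise in all 6 libraries. In these data some CG9754-IP pairs were further apart than that noise, so the simulation does not show how the fit performs with them. Ratios of libraries used scipy 1.17.1, pandas 2.3.3 and numpy 2.4.6 in Python 3.11.15, and plots matplotlib 3.10.9. The Wilson and binomial intervals and the floor cover counting error only, because PCR copies cannot be told from molecules without identifiers. They take the reads implied by the steps as counts, which could not be established here.

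The elements and the TE lists were chosen with earlier results of these data known. Named TEs are the 3 elements, their namesakes, the 3 closest TEs by sense profile, the 3 next in the order of the sense difference, the 2 gypsy-superfamily elements with the largest rise, and marker TEs; springer was added after its value was seen. A pair of TEs named only by a number is given without the name. The germline and somatic marker lists are described by their levels.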

Additional observations from a re-analysis of the deposited data

How the results depend on the processing

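The alternatives were no filter, a filter of 50 RPM, pseudocounts of 0.1 and 10 RPM, rescaling by the median ratio or to the same TE total, a fit of only the groups compared, no trend, the replicate block and each library left out. The planned count models were not run: the file gives RPM, and the reads implied by its steps rest on too few low values to be taken as counts. Antisense values of accord2 were below the filter, and a filter of 50 RPM also removed its sense values and the antisense values of invader3. The 2 libraries a group limit the precision, and accord2 rests on the fewest reads.

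The sense differences of invader2, invader3 and accord2 between CG9754-IP and Piwi-IP or input were below 0 under every alternative that gave a value. Those that moved by more than the replicate spread were invader2 with a pseudocount of 10 RPM (−1.54 against Piwi-IP and −1.51 against input) and with the same TE total (−1.53 against Piwi-IP). The accord2 values moved more with a pseudocount of 10 RPM, to −0.63 and −0.54, within the wider spread of its replicates. Values of other TEs and medians without a CG9754-IP library were added after seeing the data.

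Between Piwi-IP and input no alternative called any of the 3 elements (adjusted p from 0.0936 to 1.00), and several values near 0 changed sign. These were, with the same TE total, sense invader2 (−0.12), invader3 (−0.083) and accord2 (−0.026) and antisense invader3 (−0.0049), and with the median ratio sense invader2 (−0.086) and invader3 (−0.048). The strand ratio of accord2 was 0.063 with a pseudocount of 10 RPM. Without 1 library the ranges were −0.0029 to 0.085 for invader2 sense, −0.064 to 0.32 for accord2 sense, −0.18 to 0.032 for the invader3 ratio and −0.054 to 0.012 for the accord2 ratio. The cause was not tested.

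The number of TEs called between Piwi-IP and input on the antisense strand, 1 as reported, was 3 with no filter, 0 with a filter of 50 RPM, 45 with only these groups in the fit, and 0 to 47 without 1 library, where the high values were those without a CG9754-IP library. On the sense strand it was 2, then 0 with the filter of 50 RPM, 5 with only these groups and 2 to 5 without 1 library. For the strand ratio it was 0, then 1 with a pseudocount of 10 RPM, 2 with only these groups, 1 with no trend and 0 to 2 without 1 library. Between CG9754-IP and input it was 34 on the antisense strand (14 to 61 without 1 library) and 64 for the strand ratio (42 to 69).

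Replicate numbers are shared by the groups, but the labels do not say that they pair libraries. Deviations of same-numbered libraries correlated across TEs at 0.26 (input and Piwi-IP), 0.10 (input and CG9754-IP) and −0.13 (Piwi-IP and CG9754-IP) on the sense strand, and at 0.03, 0.03 and 0.09 on the antisense strand. With the replicate block, 3 TEs were called on the sense strand, 1 on the antisense strand and 1 by the strand ratio between Piwi-IP and input, none of them 1 of the 3 elements.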
